A study of Homo sapiens with 12 samples.

Results

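The transcripts of 10 ligands and adhesion molecules that B cells and other antigen-presenting cells display to T cells were followed: CD40, CD80, CD86, CD83, ICOSLG, CD58, CD48, CD70, TNFSF4 and TNFSF9. They were chosen by name from the 55782 gene symbols of the count table, and all 10 passed the filter on low counts that left 15535 genes for testing. The 12 libraries came from cultures that mix 2 human lines: Jurkat, a T cell leukaemia line carrying LAG3 and PD1, and Raji, which is a Burkitt lymphoma B cell line carrying PDL1. Raji cells were loaded with 100 ng/ml of SED, a staphylococcal superantigen that bridges T cell receptors and MHC class II molecules, and every culture was kept for 24 h with antibody. The 4 arms were isotype control antibody, the anti-LAG3 antibody MK4280 with isotype, the anti-PD1 antibody MK3475 with isotype, and both blocking antibodies together, each at 1, 0.1 and 0.01 µg/ml of each antibody. There was 1 library per arm and dose, made from cells pooled over several wells, so an arm is 3 libraries at 3 doses and not 3 cultures under 1 condition. All groups share the superantigen, both engineered lines and the antibiotic selection of those lines.

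Costimulatory ligands decide how a T cell answers antigen. CD80 and CD86 on the B cell bind CD28, which amplifies the T cell receptor signal, and the inhibitory receptor CTLA4; ICOSLG binds ICOS. CD40 is the B cell receptor for CD40LG, which activated T cells display, and its signal runs through TRAF adaptors to NF-kB. CD58 binds CD2 and CD48 binds CD244, pairs that hold the cells together. CD70, TNFSF4 (OX40 ligand) and TNFSF9 (4-1BB ligand) belong to the tumour necrosis factor family and bind CD27, TNFRSF4 and TNFRSF9. CD83 marks activated antigen-presenting cells and keeps MHC class II and CD86 at the cell surface.

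Both lines were visible in every library. Of the fixed markers, 19 of 20 T genes and 24 of 24 B genes reached a mean of 1 CPM (the usual library-scaled count, here scaled by TMM), whereas 8 of 10 myeloid and natural killer markers stayed at or below 0.222 CPM (NKG7 reached 4.55 and NCAM1 1.85). Because RNA of both lines was read together, a lower level of a B cell transcript can come from fewer Raji cells or from less RNA per cell, and these cannot be told apart. All 12 libraries came from mixed cultures, so the reads of any member, TNFSF9 included, cannot be assigned to 1 line. CD48, CD58 and CD70, for example, can also be transcribed by T cells. The balance of the lines, taken as mean log2 CPM over T markers less the mean over B markers, lay between -1.45 and -1.43 in the isotype libraries, between -1.25 and -1.18 under anti-LAG3, between -1.47 and -1.29 under anti-PD1 and between -1.43 and -1.34 under the combination. The anti-LAG3 libraries thus held relatively more T cell signal than any isotype library. Total counts were 23593973 to 36581754 per library.

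Promoter sequence is shown for 3 members on which the results below turn: TNFSF9, the only ligand whose arm means passed the test, and CD83 and CD86, the 2 of 8 members with a RefSeq promoter window whose window held a match to the NF-kB consensus. Each window runs from 250 bases before to 50 bases from the annotated start, read 5′ to 3′ on the gene's strand of GRCh38.p14 (all 3 lie on the plus strand). The search used the 10-letter consensus of NF-kB on both strands, and 11.3% of the 35116 windows of this length held at least 1 match. Capitals mark the bases within a match; matches on the 2 strands and at neighbouring positions overlap. TNFSF9 (chr19:6530776-6531075) has no capitals, which says only that these letters were not found in this window. CD83 is shown at the second of its 2 windows (chr6:14117522-14117821) and CD86 likewise (chr3:122077534-122077833).
TNFSF9: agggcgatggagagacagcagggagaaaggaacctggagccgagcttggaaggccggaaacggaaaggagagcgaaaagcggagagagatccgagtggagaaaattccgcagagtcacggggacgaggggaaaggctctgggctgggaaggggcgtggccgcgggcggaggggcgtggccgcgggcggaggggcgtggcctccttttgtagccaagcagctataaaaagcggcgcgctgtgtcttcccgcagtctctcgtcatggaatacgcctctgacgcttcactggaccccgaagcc
CD83: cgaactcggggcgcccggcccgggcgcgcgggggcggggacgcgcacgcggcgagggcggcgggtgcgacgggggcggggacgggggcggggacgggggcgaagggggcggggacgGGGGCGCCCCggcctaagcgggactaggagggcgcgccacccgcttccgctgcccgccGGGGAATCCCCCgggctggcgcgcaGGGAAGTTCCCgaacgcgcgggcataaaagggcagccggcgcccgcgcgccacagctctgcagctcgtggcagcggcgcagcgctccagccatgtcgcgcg
CD86: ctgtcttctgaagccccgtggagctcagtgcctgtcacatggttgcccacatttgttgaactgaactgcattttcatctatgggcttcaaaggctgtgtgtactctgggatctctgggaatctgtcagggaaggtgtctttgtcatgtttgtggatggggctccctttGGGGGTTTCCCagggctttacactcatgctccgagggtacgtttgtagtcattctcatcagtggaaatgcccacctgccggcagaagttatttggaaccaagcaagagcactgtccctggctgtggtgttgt
The 9 overlapping matches in the CD83 window fall into 3 capitalised blocks, and the nearest block ends 41 bases before the start site. The CD86 window has 1 block of 3 overlapping matches, ending 72 bases before its start site. A match is a description of the letters and no evidence of binding.

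The ligands spanned a wide range of transcript levels. Per gene length, as RPKM (CPM per kilobase of gene length, mean ± SD over 12 libraries), CD83 stood at 74.3 ± 3.13, CD70 at 61.2 ± 2.80, CD48 at 49.9 ± 2.86 and CD40 at 43.0 ± 1.95. TNFSF9 followed at 22.2 ± 1.80, CD86 at 11.9 ± 0.631, CD58 at 7.88 ± 0.610 and CD80 at 5.83 ± 0.436. ICOSLG, at 0.727 ± 0.101, and TNFSF4, at 0.583 ± 0.127, were the lowest. Neighbours in this order did not overlap between libraries, with 2 exceptions: CD48 (45.5 to 53.7) with CD40 (41.3 to 47.8), and ICOSLG (0.552 to 0.864) with TNFSF4 (0.416 to 0.914). CD80 was thus below CD86, the other CD28 ligand, in every library.

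**Figure D1:**
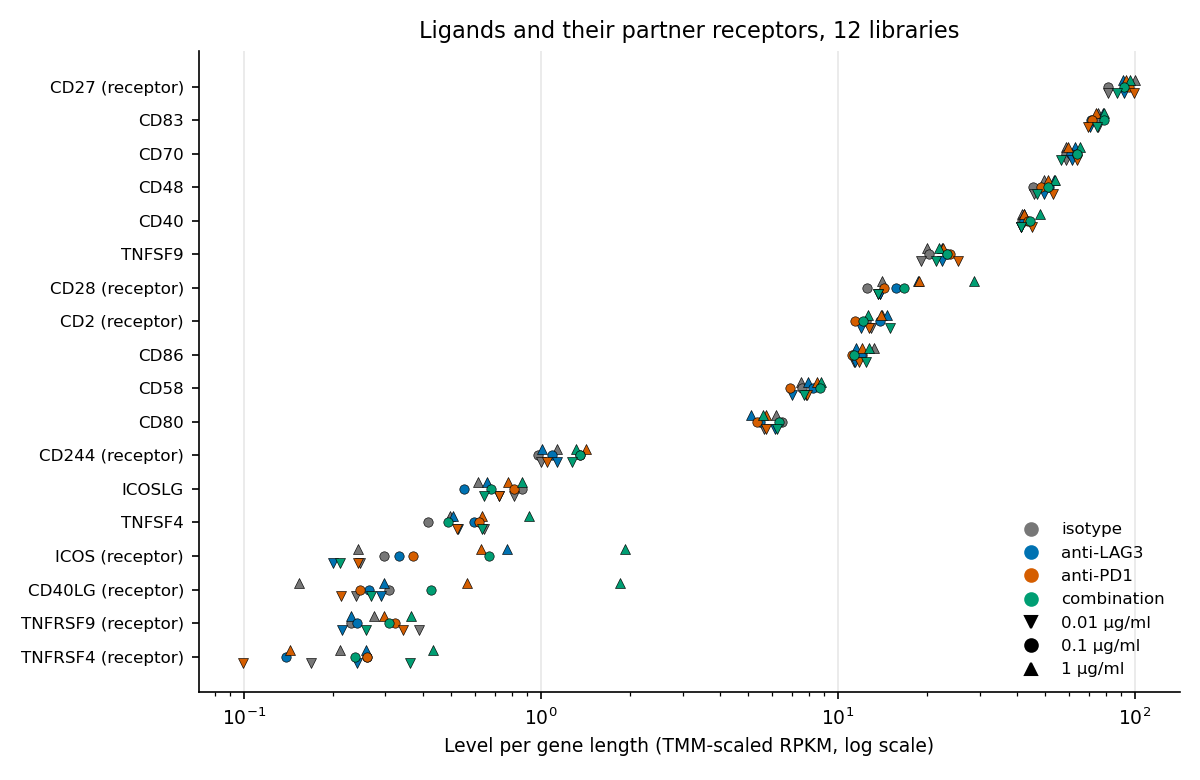
Level of each ligand and of its partner receptors per gene length (TMM-scaled RPKM, log axis) in the 12 libraries; colour gives the arm and symbol shape the dose. Most ligands form tight columns, such as CD83 at 74.3 on average, while the receptors CD28, ICOS and CD40LG spread out to the right at 1 µg/ml of the combination.

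Within a gene the levels were steady. The coefficient of variation over the 12 libraries ran from 4.21% for CD83 to 21.8% for TNFSF4, whose counts were only 44 to 92 per library. Its median over the members was 6.61%, beside 8.76% over all genes tested and 5.87% over the 8779 tested genes of at least 10 CPM. Counting error alone gives 12.8% for TNFSF4, 7.95% for ICOSLG and 1.40% for CD83, so the 2 scarce ligands are measured with the least precision.

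**Figure D2:**
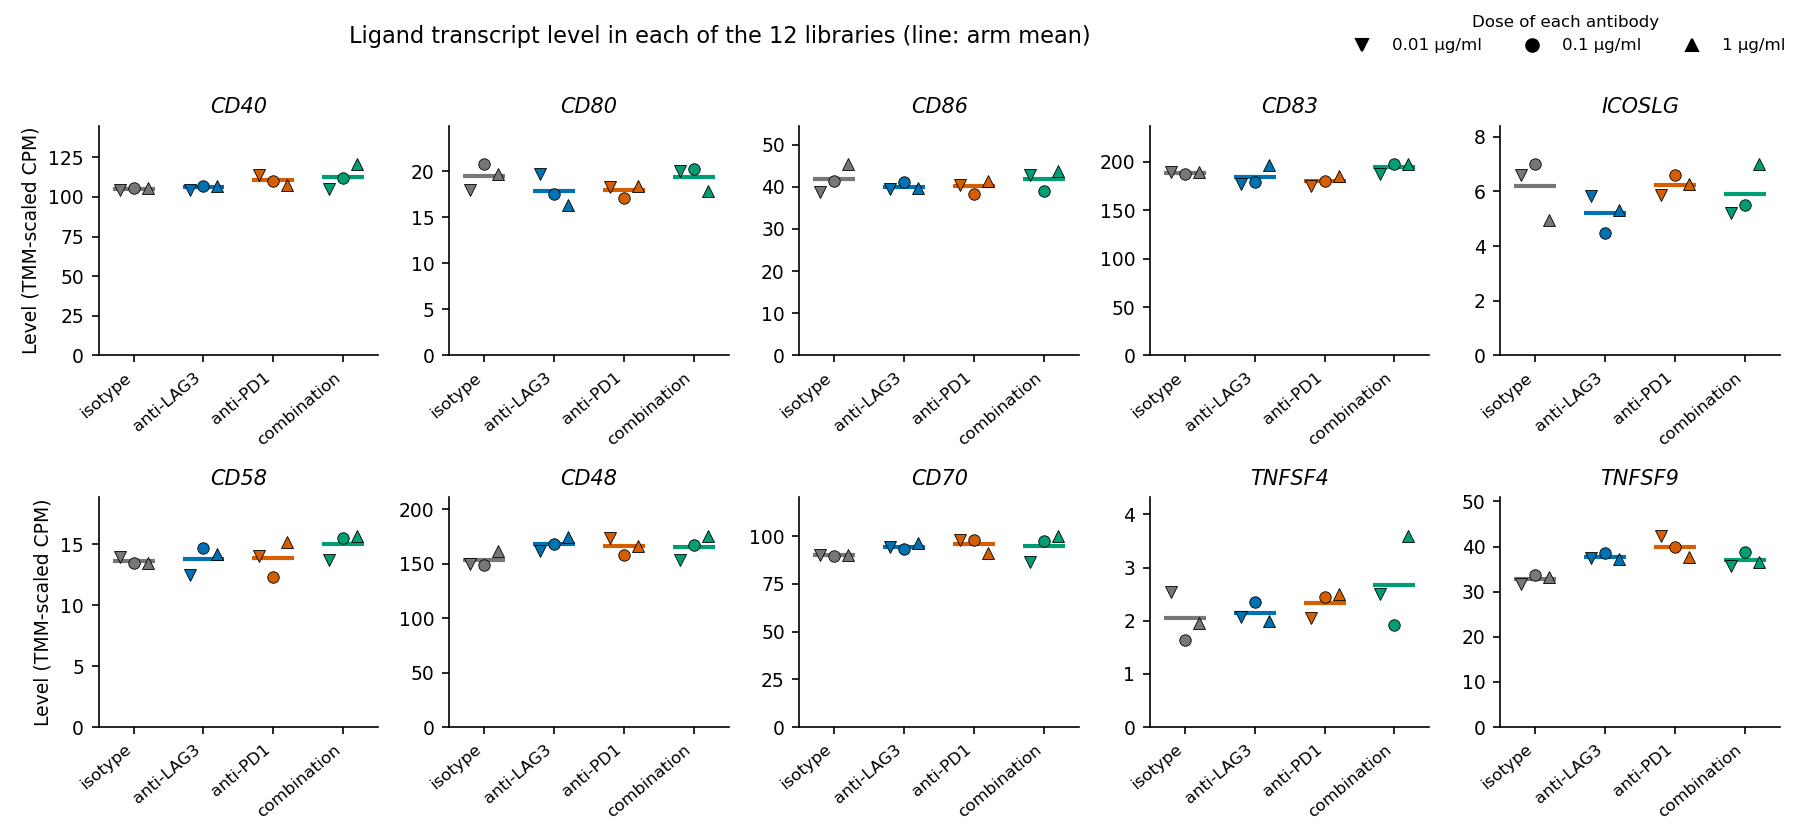
Level of each ligand (CPM, axis from 0) in every library by arm; triangles and circles give the dose and lines the mean of the 3 libraries of an arm. The 3 isotype libraries of TNFSF9 (31.7 to 33.7) lie below all 9 others (35.7 to 42.4), while the arms of most other ligands overlap.

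TNFSF9, the ligand of the costimulatory receptor 4-1BB, was higher under each single antibody than under isotype. It lies on chromosome 19 at 6530999 to 6535928 of GRCh38, plus strand. At 1, 0.1 and 0.01 µg/ml its level was 33.1, 33.7 and 31.7 CPM under isotype and 37.2, 38.7 and 37.4 CPM under anti-LAG3. Under anti-PD1 it was 37.7, 39.8 and 42.4 CPM, and under the combination 36.5, 38.7 and 35.7 CPM. None of the 9 antibody libraries overlapped the isotype libraries, and the highest value was that of anti-PD1 at its lowest dose. TNFSF9 rose by 0.20 ± 0.06 (log2, SE; 3 libraries an arm) under anti-LAG3, a gain of 14.9% (adjusted p = 0.0296, edgeR quasi-likelihood test with Benjamini-Hochberg adjustment over all genes). Under anti-PD1 it rose by 0.28 ± 0.06, or 21.5% (adjusted p = 0.0126, edgeR). It was thus 1 of 10 members called in each comparison. Of all genes, 10.0% were called for anti-LAG3 (4.88% upward) and 3.82% for anti-PD1 (2.09% upward), so for anti-LAG3 the members' share is that of the background.

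Under the combination TNFSF9 was not called. Its arm mean was 0.17 ± 0.06 above isotype (log2, adjusted p = 0.491, edgeR), in a comparison that called 1 of 15535 genes (0.00644%) and none of the members. An unadjusted p under 0.05 was found for 2 members, TNFSF9 and CD48, beside 1037 of all genes. DESeq2 called none of the members. Against the single antibodies the combination differed by -0.03 from anti-LAG3 (95% interval -0.15 to 0.09) and by -0.11 from anti-PD1 (95% interval -0.23 to 0.01). The departure from additivity, that is, the combination's difference from isotype minus the sum of both single-antibody differences, was -0.31 ± 0.08 (adjusted p = 0.0119, edgeR). Of all genes, 15.3% were called for such a departure, with 7.97% of all genes below additivity, and TNFSF9 was the only member called. An unadjusted p under 0.05 was found for 4 of 10 members, beside 4445 of 15535 genes.

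The TNFSF9 calls are small and were lost under several settings. With each library's trend against gene length and GC content removed, the differences were 0.05 under anti-LAG3 (adjusted p = 0.627) and 0.17 under anti-PD1 (adjusted p = 0.142), and the departure from additivity -0.07 (adjusted p = 0.609); TNFSF9 has a short transcript model (1665 bases, percentile 14.1 of tested genes) of 57.1% GC (percentile 76.8). With the balance of the lines as a covariate the values were 0.41 under anti-LAG3 (adjusted p = 0.118), 0.34 under anti-PD1 (adjusted p = 0.00543) and -0.53 for the departure (adjusted p = 0.0309). Scaling by the B markers gave 0.25 (adjusted p = 0.0456) and 0.27 (adjusted p = 0.109). The anti-LAG3 call was lost without any 1 of the 3 anti-LAG3 libraries (adjusted p = 0.113, 0.105 and 0.0683 without 1, 0.1 and 0.01 µg/ml) and without the isotype library of 0.1 or 0.01 µg/ml (0.122 and 0.143). The anti-PD1 call was lost without the anti-PD1 library of 0.01 µg/ml (0.180) or the isotype library of 0.1 or 0.01 µg/ml (0.113 and 0.0588), and the departure without the anti-PD1 library of 0.01 µg/ml (0.0598). Every one of these settings kept the sign of the 3 differences.

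**Figure D3:**
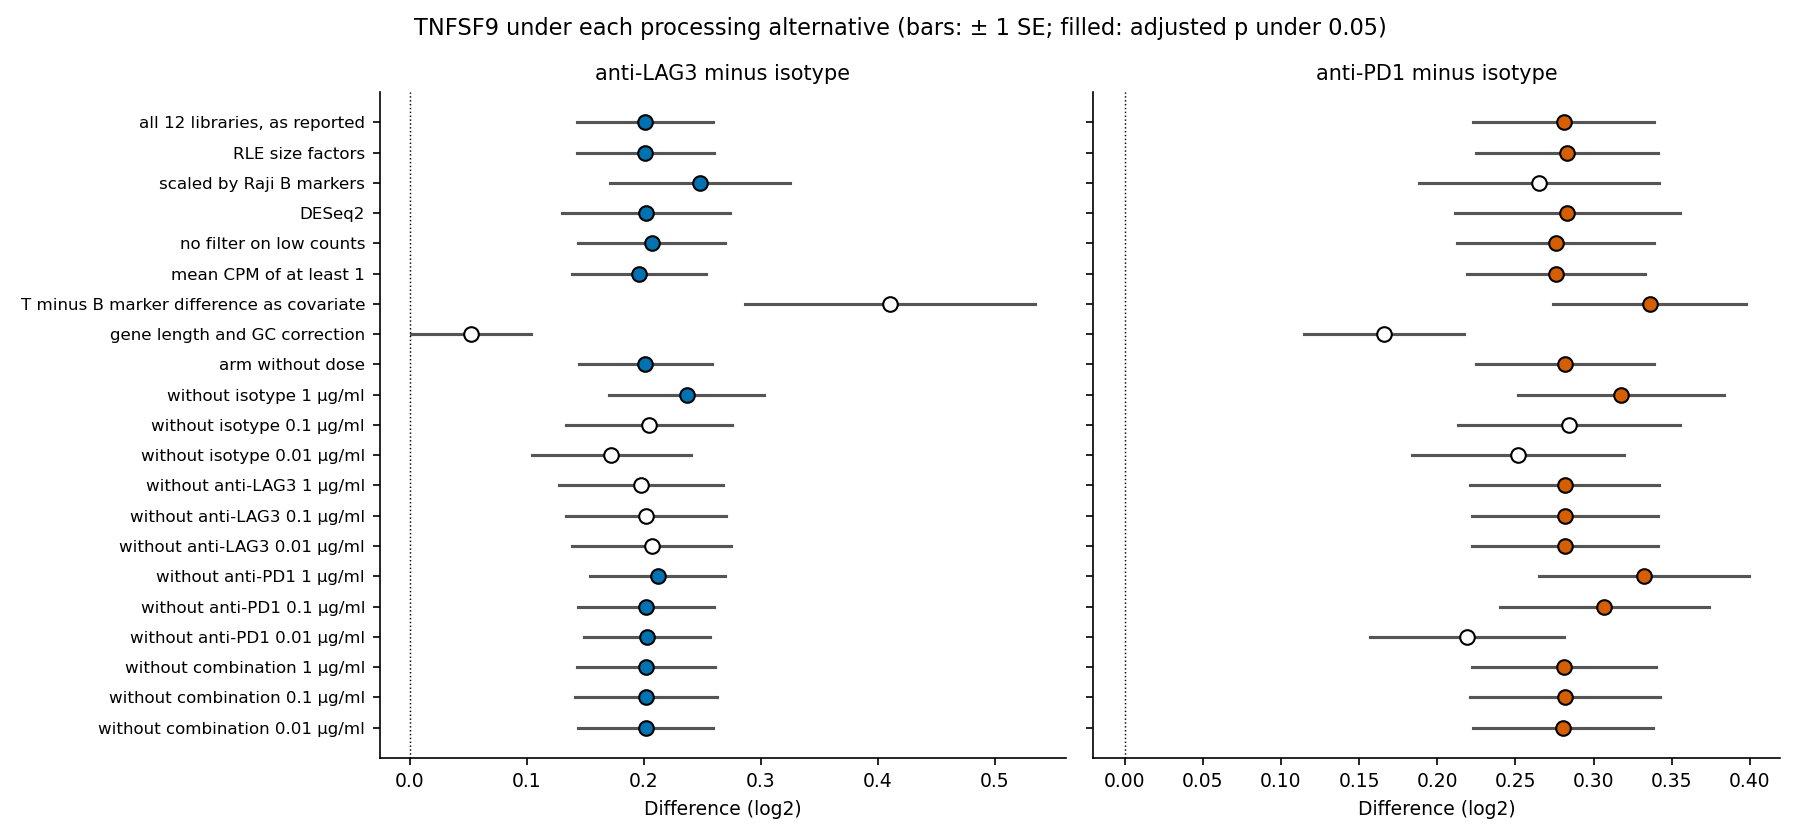
Difference of TNFSF9 from isotype (log2, ± 1 SE) under anti-LAG3 (left) and anti-PD1 (right) as reported and under each processing alternative; filled points have an adjusted p under 0.05. All points lie above 0, and the gene length and GC correction gives the lowest value on both sides, 0.05 and 0.17.

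CD80 and CD86, the ligands of CD28, were not called in any comparison. CD80 stood at 19.8, 20.8 and 18.0 CPM under isotype at 1, 0.1 and 0.01 µg/ml, at 16.4, 17.5 and 19.7 CPM under anti-LAG3, at 18.4, 17.1 and 18.3 CPM under anti-PD1 and at 17.9, 20.2 and 20.0 CPM under the combination. The arms overlapped. Its difference from isotype was -0.13 ± 0.08 under anti-LAG3, -0.12 ± 0.08 under anti-PD1 and -0.01 ± 0.08 under the combination (log2). CD86 stood at 45.4, 41.4 and 38.8 CPM under isotype and between 38.2 and 43.6 CPM in the other 9 libraries. Its combination mean matched isotype closely, with a 95% interval of -0.13 to 0.12 (log2). ICOSLG, the ligand of ICOS, was at 4.97, 7.01 and 6.59 CPM under isotype and between 4.47 and 7.01 CPM elsewhere, with intervals too wide to exclude changes such as -0.54 under anti-LAG3.

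CD40 and CD83 were not called under any antibody. CD40 was at 105, 106 and 104 CPM under isotype and at 107, 107 and 104 CPM under anti-LAG3. It was at 107, 110.3 and 114 CPM under anti-PD1 and at 121, 112 and 105 CPM under the combination, again for 1, 0.1 and 0.01 µg/ml. The anti-PD1 libraries all lay above the isotype libraries, and the highest combination dose gave the highest value of all 12. The differences from isotype were 0.07 ± 0.05 under anti-PD1 (adjusted p = 0.456, edgeR) and 0.10 ± 0.05 under the combination (adjusted p = 0.756, edgeR). CD83, the most abundant member, was at 189, 187 and 189.5 CPM under isotype and at 196, 179 and 177 CPM under anti-LAG3. It was at 185, 179.8 and 175 CPM under anti-PD1 and at 198, 198 and 188 CPM under the combination. The 3 anti-PD1 libraries lay below every isotype and every combination library, by -0.07 ± 0.04 against isotype (adjusted p = 0.417, edgeR), and the combination was 0.11 ± 0.04 above anti-PD1 (adjusted p = 0.235, edgeR). The departure of CD83 from additivity was 0.15 ± 0.06 (adjusted p = 0.106, edgeR) and passed the threshold only with the gene length and GC correction (0.21, adjusted p = 0.0236).

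Of the adhesion ligands, CD48 came closest to a call and the arms of CD58 overlapped. CD48 was at 161, 149 and 149 CPM under isotype, at 174, 168 and 162 CPM under anti-LAG3, at 167, 158 and 174 CPM under anti-PD1 and at 176, 167 and 153 CPM under the combination. The anti-LAG3 libraries were all above isotype, the other arms overlapped it. The difference was 0.13 ± 0.05 under anti-LAG3 (adjusted p = 0.0812, edgeR), 0.12 ± 0.05 under anti-PD1 (adjusted p = 0.171, edgeR) and 0.11 ± 0.05 under the combination (adjusted p = 0.673, edgeR). The anti-LAG3 difference was called without the anti-PD1 or the combination library of 0.01 µg/ml (adjusted p = 0.0451 and 0.0440). With the line balance as a covariate the anti-PD1 difference of CD48 was 0.18 (adjusted p = 0.0261) and its departure from additivity -0.39 (adjusted p = 0.0338). CD58 ran from 12.3 to 15.7 CPM over the 12 libraries, with a combination difference of 0.14 ± 0.09 (log2).

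The remaining ligands of the tumour necrosis factor family, CD70 and TNFSF4, were not called. CD70 was at 90.0, 89.8 and 90.1 CPM under isotype, at 96.3, 93.2 and 94.3 CPM under anti-LAG3, at 91.1, 98.1 and 98.0 CPM under anti-PD1 and at 100.3, 97.6 and 86.6 CPM under the combination. Both single-antibody arms lay wholly above the 3 isotype libraries, whose mean was 89.9 CPM with an SD of 0.123 CPM (n = 3). That SD is below counting error alone, 1.98% for CD70, so it does not measure precision. The lowest anti-PD1 library (91.1) lay close to the highest isotype library (90.1), so this lack of overlap says little. The differences were 0.07 ± 0.05 under anti-LAG3 and 0.09 ± 0.05 under anti-PD1 (adjusted p = 0.414 and 0.369, edgeR). TNFSF4 was at 1.96, 1.64 and 2.53 CPM under isotype and between 1.92 and 3.60 CPM in the others; the highest was the combination at 1 µg/ml.

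**Figure D4:**
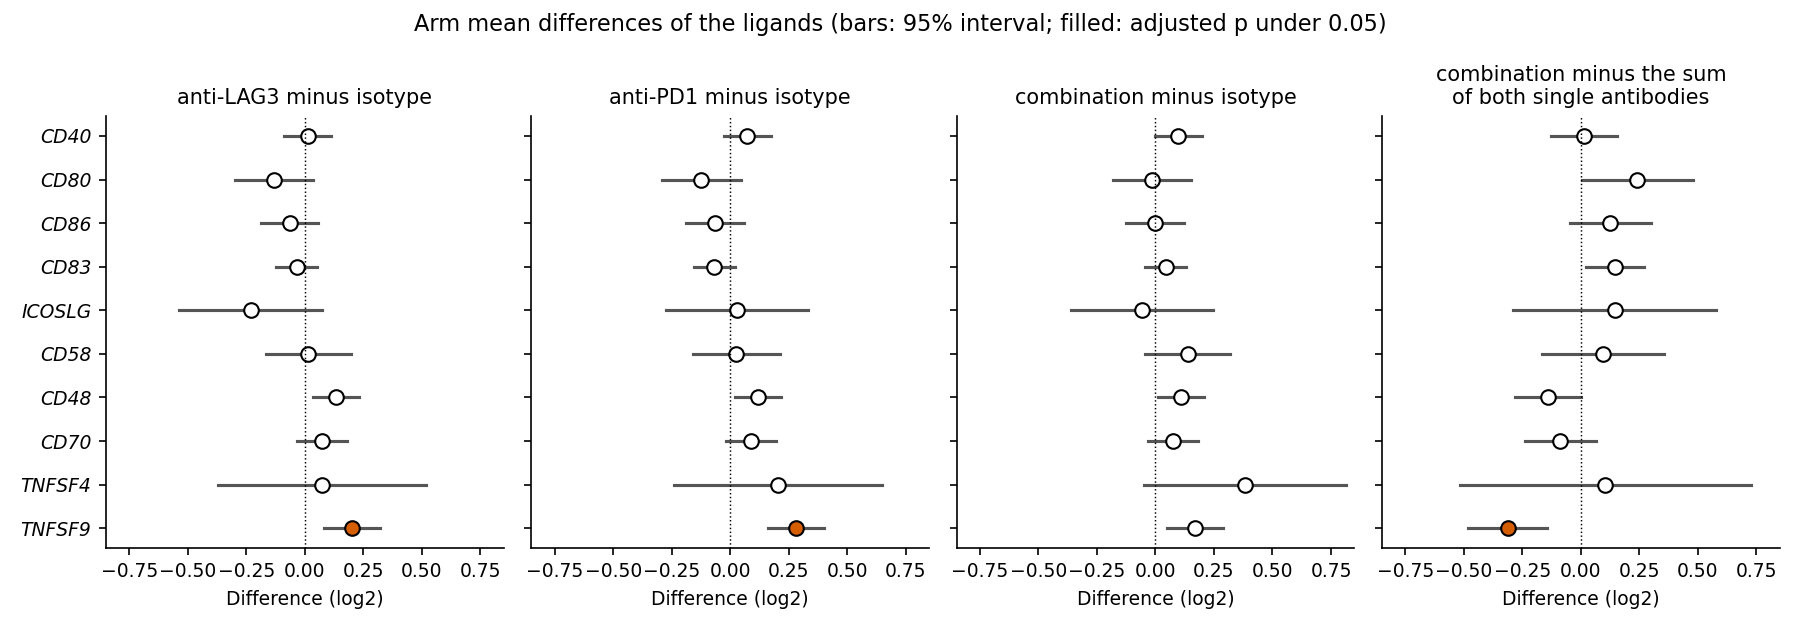
Difference of each ligand's arm mean from isotype, and departure of the combination from additivity (log2, points with 95% intervals; filled points have an adjusted p under 0.05). TNFSF9 is the only filled point, at 0.20, 0.28 and -0.31; the scarce ICOSLG and TNFSF4 have the widest intervals.

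Counting arms that do not overlap places the members beside all genes. Under anti-LAG3, 3 of 10 members (CD48, CD70 and TNFSF9) were above isotype in all 3 libraries, as were 14.7% of all genes. Under anti-PD1, 3 members (CD40, CD70 and TNFSF9) were wholly above, beside 11.3% of genes, and 1 (CD83) wholly below, beside 11.0%. Under the combination 1 member (TNFSF9) was wholly above isotype, beside 4.29%, and 1 (CD83) wholly above anti-PD1, beside 8.01%. The median difference over the members was 0.01 under anti-LAG3, 0.05 under anti-PD1 and 0.09 under the combination (log2), beside -0.00149, -0.00535 and -0.00318 over all genes tested. These comparisons share the isotype libraries and are not independent of each other.

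No member was called in a comparison of the 2 single antibodies or of the combination with either. Anti-PD1 against anti-LAG3 called 0 of 15535 genes (0%) by edgeR and by DESeq2, with 691 genes at an unadjusted p under 0.05, none of them a member. The combination against anti-LAG3 called 5.75% of genes and the combination against anti-PD1 0.354%. The members had 0 and 1 unadjusted p under 0.05, beside 3338 and 2176 of the 15535 genes. DESeq2 called none of the members.

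No ligand passed the test for a dose slope. The slope of log2 level per 10-fold dose, compared between an arm and isotype, was called for 0 of 10 members in all 3 arms and for 0 in the isotype arm alone. Over all genes 0.0708% were called for anti-LAG3, 0.264% for anti-PD1, 4.63% for the combination and 0.856% for isotype alone. At an unadjusted p under 0.05 the members counted 1, 0, 2 and 1 in these comparisons, beside 1242, 1725, 2766 and 2128 of the 15535 genes tested. DESeq2 called none of the members in any of them. The lowest p in the combination was that of ICOSLG, whose slope exceeded isotype by 0.42 ± 0.15 (adjusted p = 0.117, edgeR). ICOSLG was at 7.01, 5.51 and 5.22 CPM in the combination and at 4.97, 7.01 and 6.59 CPM under isotype, so part of this difference is the isotype arm's own slope of -0.20 ± 0.10. CD70 had a slope of 0.11 ± 0.05 (adjusted p = 0.258, edgeR), which the gene length and GC correction called (0.15, adjusted p = 0.0407). For CD83, the slope difference was 0.04 with a 95% interval of -0.05 to 0.13. The combination's slope exceeded that of a single antibody in no called member either. Of all genes, 0.766% were called against anti-LAG3 and 0.644% against anti-PD1. At an unadjusted p under 0.05 the members counted 0 and 3 (CD70, CD40 and CD48), beside 1631 and 1550 of the 15535 genes. The lowest p was that of CD70 against anti-PD1, 0.16 ± 0.05 (adjusted p = 0.204, edgeR).

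Of the 9 partner receptors that bind these ligands, 8 were tested, CTLA4 having 0 to 2 counts per library. Their reads, like those of the ligands, cannot be assigned to 1 line. In the combination 3 of the 8 rose with dose relative to isotype, in a comparison that called 4.63% of all genes: CD40LG, CD28 and ICOS, the partners of CD40, of CD80 and CD86, and of ICOSLG. The slope estimates of the 8 were positive in 4 and negative in 4 (CD2, CD27, CD244 and TNFRSF4, none of them called). ICOS was at 5.09, 1.77 and 0.557 CPM in the combination at 1, 0.1 and 0.01 µg/ml and at 0.643, 0.783 and 0.651 CPM under isotype. CD40LG was at 3.37, 0.776 and 0.487 CPM beside 0.279, 0.559 and 0.434 CPM. CD28 was at 140.2, 81.9 and 66.7 CPM beside 68.9, 61.3 and 67.7 CPM. In all 3 genes the combination at 1 µg/ml stood above the other 11 libraries. Their slopes were 1.59 ± 0.31 (ICOS, adjusted p = 0.00231), 1.81 ± 0.43 (CD40LG, adjusted p = 0.0138) and 0.53 ± 0.10 (CD28, adjusted p = 0.0156; all edgeR). Whether ligand and receptor slopes differ was not tested.

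Each of these 3 calls was lost when certain libraries at the ends of the dose range were left out. Without the combination library of 1 µg/ml the slopes were 1.68 for ICOS (adjusted p = 0.114), 0.97 for CD40LG (adjusted p = 0.612) and 0.28 for CD28 (adjusted p = 0.187). Without the isotype library of 1 µg/ml they were 1.31, 1.15 and 0.69 (adjusted p = 0.705, 0.918 and 0.154). Without the isotype library of 0.01 µg/ml they were 1.86 for ICOS, 2.499 for CD40LG and 0.37 for CD28, so larger than reported for ICOS and CD40LG, and all 3 calls were lost (adjusted p = 0.0629 for ICOS, 0.0803 for CD40LG and 0.231 for CD28). ICOS was also lost without the combination library of 0.01 µg/ml (1.54, adjusted p = 0.0980), and DESeq2 did not call CD40LG (adjusted p = 0.151). TNFRSF9, the receptor of TNFSF9, was at 1.36 to 2.46 CPM and had a slope of 0.50 ± 0.24 (adjusted p = 0.258, edgeR). CD27, the receptor of CD70 and the most abundant partner per length (91.8 RPKM), had a slope difference of -0.08 ± 0.05, while in the isotype arm alone its slope was 0.15 (adjusted p = 0.0372). That call rests on the isotype library of 1 µg/ml, without which the slope was -0.00083 (adjusted p = 1.00), and was also lost without any 1 anti-LAG3 library (0.0631 to 0.0642).

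**Figure D5:**
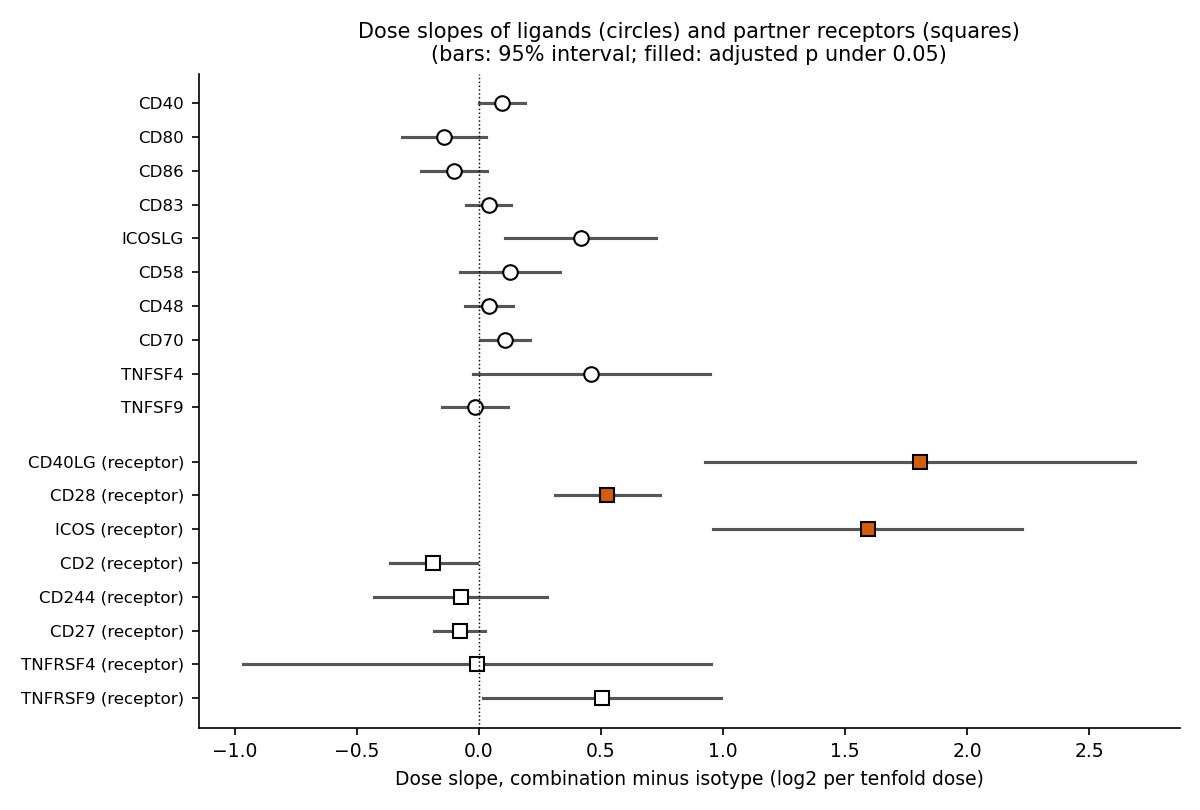
Dose slope of the combination minus that of isotype (log2 per 10-fold dose, with 95% intervals) for the 10 ligands (circles) and 8 partner receptors (squares); filled symbols have an adjusted p under 0.05. CD40LG, CD28 and ICOS are filled at 1.81, 0.53 and 1.59, and no ligand is.

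For the combination's dose slope against isotype, 4.63% of all genes were called (284 up and 435 down). Of the 23 genes of the CD40 and NF-kB list, 5 were called upward in that comparison and none downward. They were the adaptor TRAF1 (0.23 ± 0.05), the NF-kB subunits REL (0.22 ± 0.05), NFKB2 (0.21 ± 0.05) and NFKB1 (0.15 ± 0.04), and the feedback enzyme TNFAIP3 (0.22 ± 0.05; log2 per 10-fold dose, adjusted p from 0.00610 to 0.0448, edgeR). The median slope over the list was 0.10, beside 0.01 over all genes, with 15 estimates positive and 8 negative. RNA of both lines was read together, so these slopes cannot be assigned to 1 line. Whether CD40 signalling changed was not tested. CD83 and CD86, whose promoter windows hold NF-kB consensus letters, had slope differences of 0.04 ± 0.04 and -0.10 ± 0.07 in the same comparison. The gene length and GC correction kept the 5 slope calls of the list (adjusted p from 0.000746 to 0.0158, edgeR). Each of the 5 was lost without some single library at an end of the dose range. Without the isotype library of 1 µg/ml all 5 were lost (adjusted p from 0.318 to 0.883), with slopes of 0.28 for TRAF1, 0.19 for TNFAIP3, 0.18 for REL, 0.15 for NFKB2 and 0.14 for NFKB1, and without the combination library of 0.01 µg/ml REL was at 0.09 (adjusted p = 0.917). NFKB1 kept its call in 3 of 12 omissions, and DESeq2 called neither NFKB1 (adjusted p = 0.159) nor REL (0.0977). With the line balance as a covariate TNFAIP3 kept its call (adjusted p = 0.0284), and TRAF1 (0.0664), NFKB2 (0.0742), NFKB1 (0.128) and REL (0.157) did not. In arm means, REL was called lower by 0.37 under anti-LAG3 and by 0.34 under anti-PD1, BIRC3 by 0.17 under each, and FAS by 0.14 under anti-LAG3. These are 3 and 2 of 23 genes, beside the 10.0% and 3.82% of all genes called in these comparisons. No gene of the list was called upward under a single antibody. The estimates were positive in 10 of 23 genes under anti-LAG3 and in 16 under anti-PD1. Leaving out each library kept the anti-LAG3 call of REL in 12 of 12 cases, its anti-PD1 call in 8, those of BIRC3 in 8 and 5, and that of FAS in 4. With the gene length and GC correction REL under anti-LAG3 alone remained called (-0.25, adjusted p = 0.0248). With the line balance as a covariate REL under anti-PD1 alone did (-0.34, adjusted p = 0.0423). There the anti-LAG3 estimates were -0.376 (REL), -0.176 (BIRC3) and -0.0939 (FAS). Against anti-LAG3 the combination called 5 genes of the list upward (REL, FAS, CCL22, TNFAIP3 and BIRC3, 0.19 to 0.34), beside 5.75% of all genes. Against anti-PD1 it called FAS (0.20), beside 0.354%. The departure from additivity called REL (0.68), CCL22 (0.38), BIRC3 (0.35) and FAS (0.34), beside 15.3%. Of these later calls, the covariate kept only FAS against anti-PD1 (adjusted p = 0.0480, edgeR). That call held in 4 of 12 omissions and was lost with the gene length and GC correction (0.217). Calls against anti-LAG3 held in 11 (FAS), 8 (REL), 7 (BIRC3), 4 (CCL22) and 3 (TNFAIP3) of 12 omissions. That correction lost BIRC3 (0.103) and TNFAIP3 (0.0688) there. Each departure call held in 12 of 12 omissions and with that correction.

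Among 20 other ligands and adhesion molecules, 15 were tested. Under anti-LAG3, ICAM3 (0.29 ± 0.08), LGALS9 (0.25 ± 0.06) and ICAM2 (0.23 ± 0.06) rose, and ICAM1, the activation-induced ligand of the integrin LFA-1, fell by 0.20 ± 0.05. Under anti-PD1, ICAM3 (0.29 ± 0.08), TNFRSF14 (0.25 ± 0.06) and LGALS9 (0.23 ± 0.06) rose and ICAM1 fell by 0.17 ± 0.05. These are 4 of 15 genes in each comparison, beside 10.0% and 3.82% of all genes. None was called for the combination against isotype, where 2 of 15 had an unadjusted p under 0.05, beside 1037 of 15535 genes. Against anti-LAG3 the combination called ICAM1 upward (0.17), beside 5.75% of all genes. The departure from additivity called ICAM1 upward (0.34) and ICAM3 (-0.43), LGALS9 (-0.37) and ICAM2 (-0.27) downward, beside 15.3% of all genes. With the line balance as a covariate none of these combination and departure calls remained. The ICAM1 call under anti-LAG3 was lost only without the anti-LAG3 library of 0.1 µg/ml (-0.18, adjusted p = 0.0782). Of 12 omissions the other single-antibody calls kept 10 and 7 (LGALS9 under anti-LAG3 and anti-PD1), 8 (ICAM2), 7 and 4 (ICAM3), 8 (TNFRSF14) and 4 (ICAM1 under anti-PD1). With the gene length and GC correction ICAM1 was lower still (-0.29 and -0.25, adjusted p = 0.000805 and 0.0126), LGALS9 kept its call under anti-LAG3 (0.22, adjusted p = 0.0203) and not under anti-PD1 (adjusted p = 0.109), and neither ICAM2 (0.213) and ICAM3 (0.288) under anti-LAG3 nor TNFRSF14 (0.221) and ICAM3 under anti-PD1 were called. With the line balance as a covariate, no anti-LAG3 call of this list remained (adjusted p from 0.245 to 0.684). The estimates there were 0.36 for ICAM3 and 0.34 for LGALS9, larger than reported, and 0.15 for ICAM2 and -0.15 for ICAM1, closer to none. All 3 anti-LAG3 libraries had a higher T minus B difference than any other library, so that fit separates arm and balance poorly. Under anti-PD1 the calls of ICAM1 (0.0989) and ICAM3 (0.0534) were lost with the covariate.

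Over the 12 libraries, the genes most like each member in log2 CPM were listed among the 8779 genes of at least 10 CPM, by Pearson's r, as a description only. The points share arms, doses and the balance of the 2 lines. TNFSF9 was most like TNFRSF14 (0.915), CDKN2A (0.897) and WDR13 (0.896). CD40 was most like the MHC class II gene HLA-DQB1 (0.941), and CD70 was most like ASL (0.946). The B cell transcription factor SPIB was also among the nearest 3 for CD70 (0.903). CD86 was most like EIF4E (0.932), CD83 was most like USP16 (0.895) and CD48 was most like RPL6 (0.936). The nearest gene was NUTM2B-AS1 (0.865) for CD80, IDI1 (0.917) for CD58, SUN1 (0.891) for ICOSLG and GLRX2 (0.815) for TNFSF4.

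The authors' deposited tables, which compare each antibody library with the isotype libraries, give 90 values for the members. None of the 75 that carry an adjusted p is under 0.05, and 6 of the 90 have an unadjusted p under 0.05; of the genes with an adjusted p, these tables call 2.58%, 2.84% and 0.195% for anti-LAG3 at 1, 0.1 and 0.01 µg/ml, 0.443%, 0% and 1.45% for anti-PD1, and 1.73%, 0.199% and 0% for the combination. In the authors' deposited tables TNFSF9 is positive in 9 of 9 comparisons, from 0.12 to 0.37 (log2). Its lowest p in the authors' deposited tables is that of anti-PD1 at 0.01 µg/ml (0.37 ± 0.13, adjusted p = 0.120 in that table, where 1.45% of genes are called). CD48 is likewise positive in 9 of 9 of the authors' deposited tables (0.01 to 0.20), and CD86 is negative in 7 of 9 (-0.13 to 0.06). All 9 tables share the isotype libraries, so these signs are not independent.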

How the data were processed

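Raw counts per gene were taken as deposited by the authors; per the submitters' processing notes, the tools were STAR 2.5.2b, Trimmomatic 0.36, DESeq2 and featureCounts (Subread 1.5.2), with GRCh38. Which annotation release and strand setting were used, and how multiply mapped reads were handled, is not given here by any source, and the molecule is labelled polyA although the protocol describes total RNA. The authors' deposited comparison tables hold log2 fold changes with p-values and adjusted p-values. 4 count columns, whose names match no sample, and 36 per-sample columns of those tables were not used.

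Counts were tested with edgeR 4.0.16 (R 4.3.3; quasi-likelihood, TMM scaling, filterByExpr with a minimum count of 10) over 15535 genes. Arm means used arm plus dose as a factor (6 residual degrees of freedom); dose slopes used arm and log10 dose per arm, centred at 0.1 µg/ml (4 residual degrees of freedom). Adjusted p-values are Benjamini-Hochberg over all genes, and a gene is called at an adjusted p under 0.05. CPM are TMM-scaled and RPKM are those CPM per kilobase of the deposited gene length. Marker means used log2 CPM with a prior count of 2. With 1 library per condition, p-values measure the spread between libraries around these models. The alternatives were DESeq2 1.42.0, its size factors within edgeR, scaling by B markers, 2 other filters, a T minus B covariate, a loess correction for gene length and GC content (GC for 88.1% of tested genes, GENCODE transcripts), arms without dose, and each library left out. The procedure was tested on simulated data. The differences planted there were larger than those called for TNFSF9, so that test does not cover effects of this size. Members and gene lists were chosen with earlier results of these data known. All members are named. Genes of the other ligand list and of the CD40 and NF-kB list are named where called, and receptors where they bind a member. Calls of the marker genes are not listed.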

Additional observations from a re-analysis of the deposited data

Results flagged for a closer look

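One result met a rule for a closer look. The effect of the 2 antibodies on TNFSF9 differed when given together from the sum of their separate effects, by an interaction term of -0.31 ± 0.08 (log2; adjusted p = 0.0119, edgeR): anti-LAG3 and anti-PD1 alone gave 0.20 and 0.28, and the combination 0.17. In the same test 15.3% of all genes were called. The T minus B marker difference, which moves with the arms, was highest under anti-LAG3 (-1.22 ± 0.04, SD, n = 3). It was -1.38 ± 0.09 under anti-PD1 and -1.39 ± 0.04 under the combination, beside -1.44 ± 0.01 under isotype. With that difference as a covariate the interaction was -0.53 (adjusted p = 0.0309). With the gene length and GC correction it was -0.07 (adjusted p = 0.609), and without the anti-PD1 library of 0.01 µg/ml it was -0.25 (adjusted p = 0.0598).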

How the results depend on the processing

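Of 130 member results (10 members in 13 comparisons), 3 passed the threshold, all of TNFSF9. Of 2540 alternative values, 2520 kept their side of the threshold, 14 lost a call and 6 gained one; none that passed a threshold changed sign, while 199 of 2474 values past the threshold in neither fit did. The count of members called under anti-LAG3 against isotype, 1 as reported, was 0 with the T minus B covariate and 0 with the gene length and GC correction. Under anti-PD1 it was 0 with scaling by B markers, 0 with the gene length and GC correction and 2 with the covariate. For the departure from additivity it was 2 with the covariate; with the gene length and GC correction it was still 1, but CD83 in place of TNFSF9. For the combination's dose slope it was 1 with the gene length and GC correction (0 as reported). Leaving out each library gave 0 to 2 members under anti-LAG3, 0 to 1 under anti-PD1 and 0 to 1 for the departure; the cause of these changes was not tested. The T minus B difference with medians of markers in place of means was -1.64 for isotype, -1.46 for anti-LAG3, -1.68 for anti-PD1 and -1.73 for the combination, beside -1.44, -1.22, -1.38 and -1.39.

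Counts over all genes, the background of the members' counts, moved more. Anti-LAG3 called 1560 genes (758 higher, 802 lower) and 84 with the covariate, and scaling by B markers gave 668 higher and 222 lower. Anti-PD1 called 594 (325 higher, 269 lower) and 44 with scaling by B markers (15 higher, 29 lower), 52 with the gene length and GC correction, and between 0 and 1044 with a library left out. The combination called 1, and 145 with no filter on low counts. The departure called 2372 (1134 higher, 1238 lower) and 781 with the covariate, and 316 higher and 1258 lower with B marker scaling. The combination's dose slope called 719 (284 higher, 435 lower), 290 with DESeq2, and 441 higher with 165 lower under B marker scaling. That scaling took the median slope of all genes against isotype from 0.01 to 0.11 for anti-LAG3 and from 0.01 to 0.13 for anti-PD1. With a library left out, anti-LAG3 called 424 to 2045 genes, the combination 0 to 271, the departure 1434 to 2967 and the combination's slope 34 to 955. Over the other alternatives the combination called 45 to 1292 genes against anti-LAG3 (893 as reported) and 3 to 349 against anti-PD1 (55). The slopes called 4 to 71 (11) for anti-LAG3, 0 to 493 (41) for anti-PD1, 67 to 1506 (133) for isotype alone, and 37 to 207 (119) and 13 to 170 (100) for the combination against anti-LAG3 and anti-PD1. The labels give no replicate numbers; dose, the label that arms share, is a term of the arm means' model, which matches libraries of equal dose across arms, and without that block (no replicate block) TNFSF9 was the 1 member called, as with it, at 0.20 under anti-LAG3 and 0.28 under anti-PD1, and no call of a member changed. Depth limits ICOSLG (112 to 188 counts) and TNFSF4 (44 to 92).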
